A study of Mus musculus with 20 samples.

Results

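The genes described here are 10 mouse genes of cell-cell adhesion and of the epithelial-mesenchymal axis: the cadherins Cdh1, Cdh2, Cdh3 and Cdh11, the adhesion proteins Epcam and Nectin4, the cadherin-bound catenins Ctnna1 and Ctnnd1, the intermediate filament protein Vim and the matrix protein Fn1. They were chosen by name, with earlier results of these data known, from the 45706 gene identifiers in the count files. All 10 passed the filter on low counts both in tumors, where 18617 genes were tested, and in cells, where 15178 were. The 20 RNA libraries fall into 6 groups. Tumors of 18-week-old mice came from 4 control animals, labelled wild type, and from 4 MMTV-cre;Ctsd-/- animals, in which the gene for the lysosomal protease cathepsin D is deleted in mammary epithelium by a Cre recombinase under the MMTV promoter, so that stromal cells of these tumors keep Ctsd. All of these mice carry the polyoma middle T (PyMT) oncogene, also driven by the MMTV promoter. Cells were spontaneously immortalized lines from end-stage PyMT tumors of Ctsd+/+ or MMTV-cre;Ctsd-/- mice, the latter called Ctsd-/- cells here. They were kept in starvation medium with 1% FCS (fetal calf serum) for 10 days (short-term, labelled 1% FCS) or for 12 weeks (long-term, labelled 1% FCS LT). Each of the 4 groups had 3 libraries. The paper contrasts a Ctsd+/+ line with a Ctsd-/- line, so genotype and line cannot be told apart in the cells. The replicates are then cultures of the same line, and the p-values measure the spread between cultures.

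Classical cadherins are calcium-dependent adhesion receptors that bind their own kind on the neighboring cell. Their cytoplasmic tails bind p120-catenin, which keeps cadherins at the membrane, and beta-catenin, which in turn binds alpha-catenin and so the actin cytoskeleton. In mammary epithelium E-cadherin is the cadherin of luminal cells and P-cadherin that of basal cells, while N-cadherin, vimentin and fibronectin are textbook markers of mesenchymal cells and of epithelial cells that have undergone epithelial-mesenchymal transition (EMT). The transcription factors of the SNAI and ZEB families, which repress E-cadherin and other epithelial genes in EMT, bind the E-box CACCTG.

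Levels are given as CPM, the deposited counts of a gene relative to all gene counts of its library after TMM scaling, and differences as log2 fold changes of edgeR with their standard error. A gene is said to have risen, fallen or differed where edgeR's quasi-likelihood test gave an adjusted p under 0.05 over all genes tested in that material. Depth ranged from 49725437 to 64291587 gene counts in tumors and from 33622831 to 40239762 in cells. The targeted gene Ctsd was lower in each MMTV-cre;Ctsd-/- tumor, at 360 to 1295 CPM, than in each control tumor, at 1781 to 2617 CPM, although edgeR's adjusted p was 0.463. In cells it was at 114 to 192 CPM in the 6 Ctsd-/- libraries and at 1267 to 4199 CPM in the 6 Ctsd+/+ libraries. The library code in the labels has a part written LR with a number. In tumors each of the 2 LR numbers holds a single genotype, so the number and the genotype cannot be told apart, and in cells 8 of the 12 libraries share the same LR number, with both genotypes and both times among them.

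Promoter sequence was available from RefSeq for 4 of the 10 genes. It is shown for Epcam, Nectin4 and Vim, which of these 4 moved most between the cell groups, Vim against the other two, and runs from 250 bases before to 50 bases after the RefSeq start, 5′ to 3′ on the strand of the gene (GRCm38.p6). Epcam lies at chr17:87635729-87636028, Nectin4 at chr1:171369923-171370222 and Vim at chr2:13574061-13574360, all on the plus strand. Capitals mark the E-box CACCTG, the GC box with the letters GGGCGG and the TATA box with the letters TATAAA, each searched on both strands.
Epcam: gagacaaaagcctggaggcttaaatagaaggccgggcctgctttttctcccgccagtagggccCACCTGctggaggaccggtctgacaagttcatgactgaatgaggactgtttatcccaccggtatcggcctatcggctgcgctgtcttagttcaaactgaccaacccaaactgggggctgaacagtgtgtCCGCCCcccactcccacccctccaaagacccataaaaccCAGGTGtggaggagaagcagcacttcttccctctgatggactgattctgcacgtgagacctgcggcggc
Nectin4: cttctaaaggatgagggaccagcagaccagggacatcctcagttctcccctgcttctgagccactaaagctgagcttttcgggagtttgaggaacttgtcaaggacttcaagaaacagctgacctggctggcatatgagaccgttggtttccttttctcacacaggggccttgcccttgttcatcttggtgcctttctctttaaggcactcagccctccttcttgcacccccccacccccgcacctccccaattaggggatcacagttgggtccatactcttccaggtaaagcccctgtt
Vim: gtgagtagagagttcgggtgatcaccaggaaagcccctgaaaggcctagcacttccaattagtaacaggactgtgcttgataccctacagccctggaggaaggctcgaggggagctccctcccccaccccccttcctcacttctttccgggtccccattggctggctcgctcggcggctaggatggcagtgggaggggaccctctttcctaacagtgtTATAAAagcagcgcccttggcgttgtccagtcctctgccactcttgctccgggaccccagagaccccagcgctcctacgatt
The Epcam promoter holds 2 matches to the E-box, 1 on each strand, and 1 to the GC box on the opposite strand. The Vim promoter holds 1 match to the TATA box and none to the others, and the Nectin4 promoter holds none of the 3. At least 1 match to the E-box was found in 20.2% of the 32851 promoters of the same length, to the GC box in 35.7% and to the TATA box in 13.6%. These matches describe letters only.

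Cdh1 (ENSMUSG00000000303, chr8:106603351-106670246, plus strand, GRCm38) encodes E-cadherin. In short-term Ctsd+/+ cells it was at 234, 308 and 259 CPM, and in short-term Ctsd-/- cells at 978, 974 and 911 CPM. After 12 weeks the long-term Ctsd+/+ cells were at 1002.5, 896 and 841 CPM, and the long-term Ctsd-/- cells at 392, 423 and 503 CPM. The order of the group means was thus short-term Ctsd-/-, long-term Ctsd+/+, long-term Ctsd-/- and short-term Ctsd+/+, and of neighbors in that order only the first pair had overlapping ranges. Cdh1 was higher in Ctsd-/- than in Ctsd+/+ cells in short-term culture by 1.84 ± 0.14 (log2 fold change ± SE, adjusted p = 1.26e-06, edgeR) and lower in long-term culture by a log2 fold change of -1.06 ± 0.13 (adjusted p = 9.37e-05, edgeR).

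Cdh2 (ENSMUSG00000024304, chr18:16588877-16809246, minus strand) encodes N-cadherin. It was at 728, 639 and 502 CPM in short-term Ctsd+/+ cells, at 51.7, 33.1 and 30.6 CPM in short-term Ctsd-/- cells, at 106, 35.4 and 65.5 CPM in long-term Ctsd+/+ cells and at 82.7, 59.7 and 8.49 CPM in long-term Ctsd-/- cells. The short-term Ctsd+/+ group stood above the other 3 groups, whose ranges overlapped. Cdh2 was lower in Ctsd-/- than in Ctsd+/+ cells in short-term culture (log2 fold change -4.02 ± 0.67, adjusted p = 0.000465, edgeR). In long-term culture the difference was -0.45 ± 0.60 (adjusted p = 0.583, edgeR), and with replicate 3 of the Ctsd-/- cells left out it was 0.05.

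Set against each other within a library and per kilobase of exon, N-cadherin and E-cadherin mRNA were at similar levels in short-term Ctsd+/+ cells only, with Cdh2 to Cdh1 ratios of 1.76, 1.18 and 1.10. The ratio was between 0.0191 and 0.0300 in short-term Ctsd-/- cells and between 0.0224 and 0.0599 in long-term Ctsd+/+ cells. In long-term Ctsd-/- cells it was 0.120, 0.0800 and 0.00957, so replicate 3 had the lowest ratio of all cell libraries and replicates 1 and 2 had ratios above those of the other long-term and Ctsd-/- libraries. In tumors the ratio did not exceed 0.00625.

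Cdh3 (ENSMUSG00000061048, chr8:106510891-106557297, plus strand), which encodes P-cadherin and lies next to Cdh1, was low in the cells. Its 12 values ranged from 0.726 to 6.0 CPM, and it passed the test in none of the 4 pairwise comparisons between cell groups. Cdh11 (ENSMUSG00000031673, chr8:102632095-102785642, minus strand), which encodes cadherin-11, a cadherin of fibroblasts and osteoblasts, was lower still, at 0.213 to 1.83 CPM, that is 8 to 60 counts per library. Its fall in Ctsd+/+ cells from short-term to long-term culture (log2 fold change -1.40 ± 0.48, adjusted p = 0.0298, edgeR) rested on the highest of these values. Without that library, replicate 2 of the short-term Ctsd+/+ cells, the log2 fold change was -0.74 (adjusted p = 0.192, edgeR), and the call was also lost without replicate 2 (adjusted p = 0.111) or replicate 3 (adjusted p = 0.0697) of the long-term Ctsd+/+ cells.

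Epcam (ENSMUSG00000045394, chr17:87635979-87651129), whose promoter is shown above, encodes the epithelial cell adhesion molecule. It was at 128, 171 and 145 CPM in short-term Ctsd+/+ cells, at 763, 858 and 819 CPM in short-term Ctsd-/- cells, at 799, 648 and 722 CPM in long-term Ctsd+/+ cells and at 722, 685 and 828 CPM in long-term Ctsd-/- cells. The last 3 groups overlapped and the short-term Ctsd+/+ cells stood below all of them. Nectin4 (ENSMUSG00000006411, chr1:171370099-171388598), an immunoglobulin-type adhesion receptor of epithelial junctions, was at 15.5, 19.0 and 23.6 CPM in short-term Ctsd+/+ cells and at 216, 227 and 208 CPM in short-term Ctsd-/- cells. It was at 101, 123 and 95.6 CPM in long-term Ctsd+/+ cells and at 96.5, 146 and 187 CPM in long-term Ctsd-/- cells, which overlapped each other and lay between the short-term groups. In short-term culture both genes were higher in Ctsd-/- cells, Epcam by 2.46 ± 0.14 (adjusted p = 1.77e-07, edgeR) and Nectin4 by 3.48 ± 0.24 (adjusted p = 5.98e-07, edgeR) on the log2 scale.

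Vim (ENSMUSG00000026728, chr2:13573927-13582826), the intermediate filament of mesenchymal cells, spanned the widest fold range of the 10 genes in the cells. It was at 2749.9, 2967.5 and 3481 CPM in short-term Ctsd+/+ cells and at 8.61, 11.1 and 9.76 CPM in short-term Ctsd-/- cells. In long-term culture it was at 3.03, 0.906 and 7.17 CPM in Ctsd+/+ cells, that is 112, 34 and 283 counts, and at 809.8, 506 and 38.1 CPM in Ctsd-/- cells. No 2 of the 4 groups overlapped. Ctsd-/- cells had less Vim than Ctsd+/+ cells in short-term culture (log2 fold change -8.29 ± 1.07, adjusted p = 6.74e-05, edgeR) and more in long-term culture (6.92 ± 1.02, adjusted p = 0.000253, edgeR).

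Fn1 (ENSMUSG00000026193, chr1:71585520-71653200, minus strand) encodes fibronectin, a matrix glycoprotein that cells bind through integrins. It was among the genes with very high counts in the cells, taking 0.891% to 5.54% of all gene counts of a cell library and 0.00405% to 0.0212% of those of a tumor. It was at 54583, 62112 and 31049 CPM in short-term Ctsd+/+ cells, at 16123, 12212 and 13012 CPM in short-term Ctsd-/- cells, at 19655, 18389 and 27412 CPM in long-term Ctsd+/+ cells and at 12115, 10242 and 8676.5 CPM in long-term Ctsd-/- cells. The group ranges did not overlap, and both Ctsd-/- groups lay below both Ctsd+/+ groups. Fn1 was lower in Ctsd-/- cells in short-term culture (log2 fold change -1.84 ± 0.28, adjusted p = 0.000244, edgeR) and in long-term culture (-1.08 ± 0.28, adjusted p = 0.00897, edgeR), but among the 8 libraries of the shared LR number the second difference was -0.77 ± 0.30 with an adjusted p of 0.0803. Fn1 shares exon bases with the annotated gene Apol7d on the other strand. The cell counts used here are strand-specific.

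Of the catenins, Ctnna1 (ENSMUSG00000037815, chr18:35118859-35254779, plus strand), which encodes alpha-E-catenin, ranged from 594 to 738 CPM in short-term Ctsd+/+ cells and from 1082 to 1181 CPM in short-term Ctsd-/- cells. It was at 880 to 991 CPM and at 983 to 1063 CPM in the long-term Ctsd+/+ and Ctsd-/- cells. Ctnnd1 (ENSMUSG00000034101, chr2:84600071-84650765, minus strand), which encodes p120-catenin, had group means between 42.5 ± 5.1 and 66.1 ± 3.4 CPM (SD, n = 3). In short-term culture, Ctnna1 was higher in Ctsd-/- cells by 0.72 ± 0.11 (adjusted p = 0.00033, edgeR) on the log2 scale, and the difference of Ctnnd1 was 0.13 ± 0.12 (adjusted p = 0.415, edgeR). Ctnnd1 shares exon bases with Gm28635 on the same strand, so the counting could have set part of its reads aside. Ctnna1 shares exon bases with Lrrtm2 on the other strand, which bears on the tumor counts, made regardless of strand, and not on those of the cells.

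**Figure D1:**
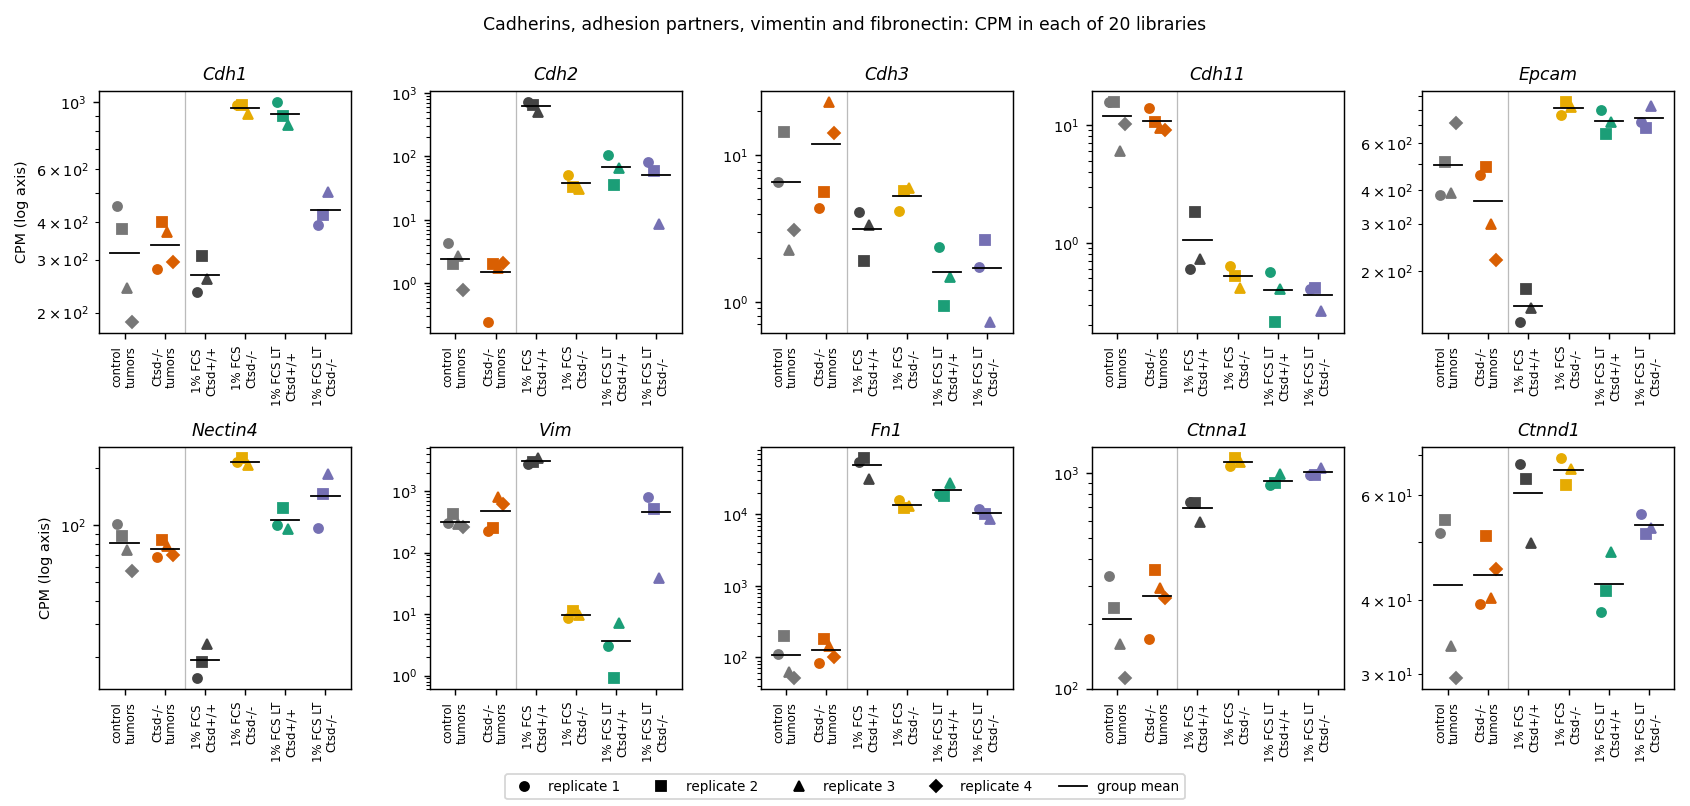
CPM (log axis) of the 10 genes in all 20 libraries, by group, with a marker shape per replicate and a line at the group mean. The short-term Ctsd+/+ cells lie apart from the other cell groups in Cdh1, Cdh2, Epcam, Nectin4 and Vim, and replicate 3 of the long-term Ctsd-/- cells lies below replicates 1 and 2 in Cdh2 and Vim.

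In short-term culture, 4 of the 10 genes were higher and 3 lower in Ctsd-/- than in Ctsd+/+ cells, where 23.5% and 25.1% of all tested genes were called in these directions. Cdh1, Epcam, Nectin4 and Ctnna1, genes of epithelial adhesion, were higher. Vim, Cdh2 and Fn1 were lower. The median absolute log2 fold change of the 10 genes was 1.84, against 0.50 over all genes tested. As the genes were chosen with earlier results of these data known, these contrasts with all genes are a description and not a test. Ctnnd1, Cdh3 (0.76 ± 0.45, adjusted p = 0.186, edgeR) and Cdh11 (-1.0 ± 0.47, adjusted p = 0.0964, edgeR) did not pass. Cdh11 passed without replicate 1 of the Ctsd+/+ cells (-1.28, adjusted p = 0.0475, edgeR), and without replicate 2 its difference was -0.35.

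These cells are labelled as breast tumor cells, and the luminal keratins Krt8 and Krt18 were detected in all 12 libraries, at 217 to 766 CPM and 261 to 464 CPM in short-term Ctsd+/+ cells and at 1134 CPM or more in the other cell groups. The summed level of 10 luminal epithelial markers was 744 to 2146 CPM in short-term Ctsd+/+ cells and 10976 to 15041 CPM in short-term Ctsd-/- cells. The summed level of 10 fibroblast markers was 1473 to 3629 CPM in short-term Ctsd+/+ cells, with 6 of the 10 above 1 CPM, and 3.24 to 104 CPM in the other cell groups. Most of that sum was Col1a1, the main fibrillar collagen, at 531 to 2320 CPM, and Pdgfrb, a receptor of fibroblasts and pericytes, at 160 to 694 CPM, while Lum, Thy1 and Dpt were under 0.1 CPM in every short-term Ctsd+/+ library. In bulk RNA fewer cells of a type and less RNA per cell cannot be told apart, and the part of other cell types in the Vim, Cdh2 and Fn1 levels was not tested.

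In Ctsd+/+ cells 4 of the genes rose and 5 fell from short-term to long-term culture, against 23.0% and 23.4% of all tested genes. The log2 fold change was -9.69 ± 1.14 for Vim (adjusted p = 3.76e-05), -3.18 ± 0.65 for Cdh2 (adjusted p = 0.00186) and -1.17 ± 0.28 for Fn1 (adjusted p = 0.00453), all with edgeR. Nectin4 rose by 2.46 ± 0.23 (adjusted p = 5.98e-06), Epcam by 2.29 ± 0.14 (adjusted p = 3.13e-07), Cdh1 by 1.77 ± 0.14 (adjusted p = 1.77e-06) and Ctnna1 by 0.42 ± 0.11 (adjusted p = 0.0095), all with edgeR. Ctnnd1 and Cdh11 fell, and Cdh3 (-0.98 ± 0.46, adjusted p = 0.104, edgeR) did not pass. This comparison and the previous one share the short-term Ctsd+/+ libraries.

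In Ctsd-/- cells 1 of the genes rose and 1 fell from short-term to long-term culture, against 1.57% and 0.810% of all tested genes. Vim rose by 5.52 ± 0.95 on the log2 scale (adjusted p = 0.0154, edgeR) and Cdh1 fell, with -1.12 ± 0.13 (adjusted p = 0.00344, edgeR). Leaving out any of the 3 replicates of the short-term Ctsd-/- cells kept the Vim difference at 5.43 to 5.62 but lost its call (adjusted p = 0.0535, 0.0862 and 0.082, edgeR). Epcam, at -0.13 ± 0.13 (adjusted p = 0.667, edgeR), Cdh2, at 0.39 ± 0.60 (adjusted p = 0.791, edgeR), and Fn1, at -0.41 ± 0.27 (adjusted p = 0.471, edgeR), did not pass. Cdh3 was lower in all 3 long-term libraries, at 0.726 to 2.63 CPM against 4.16 to 6.0 CPM, and its difference of -1.64 ± 0.46 missed the threshold with edgeR (adjusted p = 0.0885) and passed it with DESeq2 (adjusted p = 0.0111).

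Between genotypes in long-term culture, 1 of the 10 genes was higher and 2 were lower in Ctsd-/- cells, against 20.5% and 19.1% of all tested genes. Vim was higher, and Cdh1 and Fn1 were lower, with the values given above. For Epcam (0.04 ± 0.13), Ctnna1 (0.13 ± 0.11), Nectin4 (0.42 ± 0.21), Ctnnd1 (0.33 ± 0.12), Cdh3 (0.09 ± 0.46) and Cdh11 (-0.13 ± 0.50) the adjusted p of edgeR lay between 0.0546 and 0.892. Ctnnd1 was nearest to the threshold, its ranges of 38.1 to 48.1 CPM and 51.6 to 55.8 CPM did not overlap, and it passed among the libraries of the shared LR number (0.44 ± 0.14, adjusted p = 0.0368, edgeR). Nectin4 passed without replicate 1 of the Ctsd-/- cells (0.65 ± 0.18, adjusted p = 0.0157, edgeR).

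The long-term change of Ctsd-/- cells was then set against that of Ctsd+/+ cells in the same fit, as the difference between both log2 fold changes. It was above 0 for 2 genes and below 0 for 4, against 16.1% and 14.1% of all tested genes. For Vim it was 15.2 ± 1.5 (adjusted p = 2.51e-05, edgeR) and for Cdh1 -2.89 ± 0.19 (adjusted p = 2.11e-06, edgeR), and both of these moved in opposite directions in the 2 genotypes. For Cdh2 it was 3.56 ± 0.87 (adjusted p = 0.00941), for Nectin4 -3.06 ± 0.31 (adjusted p = 3.19e-05), for Epcam -2.41 ± 0.19 (adjusted p = 5.41e-06) and for Ctnna1 -0.58 ± 0.16 (adjusted p = 0.0176), all with edgeR. In those 4 genes only the change of the Ctsd+/+ cells had passed the test on its own. Fn1 (0.76 ± 0.39, adjusted p = 0.165, edgeR), Ctnnd1, Cdh11 and Cdh3 did not pass, and Fn1 passed without replicate 3 of the short-term Ctsd+/+ cells (1.0, adjusted p = 0.0286, edgeR).

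**Figure D2:**
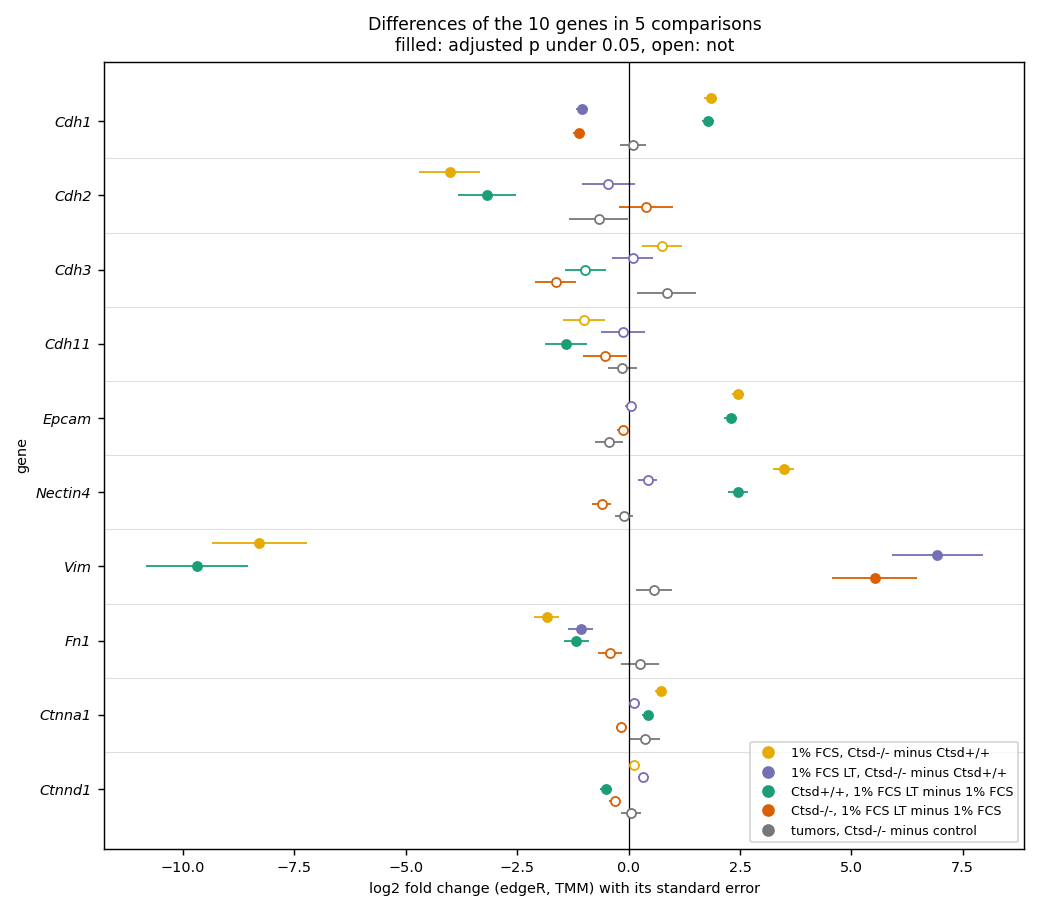
Log2 fold changes (x axis) with standard errors of the 10 genes (y axis) in the 4 pairwise cell comparisons and in the tumors, with filled points for an adjusted p under 0.05. Vim and Cdh1 lie on opposite sides of 0 in Ctsd+/+ and Ctsd-/- cells over time, Epcam and Nectin4 lie far from 0 only in the 2 comparisons with short-term Ctsd+/+ cells, and no point of the tumors is filled.

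Of the 10 genes, Vim and Cdh2 differed most between the 3 libraries of the long-term Ctsd-/- cells. The SD of log2 CPM was 2.37 for Vim and 1.77 for Cdh2, larger than in 99.8% and 99.4% of all tested genes, whose median SD in that group was 0.18. For Epcam it was 0.14 and for Ctnna1 0.06. Vim was 21.2 times and Cdh2 9.74 times as high in replicate 1 as in replicate 3, and Nectin4 was 1.94 times and Cdh1 1.29 times as high in replicate 3 as in replicate 1. Replicate 2 lay between them in each of these 4 genes. Cdh3, at few counts, was at 1.72, 2.63 and 0.726 CPM, with an SD of 0.91 that was larger than in 96.2% of genes, and was highest in replicate 2. In long-term Ctsd+/+ cells Vim and Cdh2 were also uneven, with SDs of 1.46 and 0.79, larger than in 99.6% and 94.9% of genes. Vim was at 0.906 to 7.17 CPM there.

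Each replicate was placed on the log2 CPM scale between the mean of short-term Ctsd-/- cells (0%) and that of short-term Ctsd+/+ cells (100%), as a description. For Vim the replicates 1, 2 and 3 of the long-term Ctsd-/- cells stood at 76.9%, 68.7% and 23.7% of the way, and for Cdh1 at 69.5%, 63.5% and 49.9%. For Nectin4 they stood at 33.3%, 16.3% and 6.11%, and for Cdh2 at 28.3%, 16.7% and -52.8%. Epcam stayed near the Ctsd-/- end, at 6.89%, 10.0% and -1.12%. Fn1 lay beyond that end, at -9.83%, -23.4% and -36.8%. Replicate 3 was thus nearest to the short-term Ctsd-/- cells, or farthest on the side away from the Ctsd+/+ cells, in all 7 genes that differed between genotypes in short-term culture, with the replicates of Epcam all close to 0%.

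**Figure D3:**
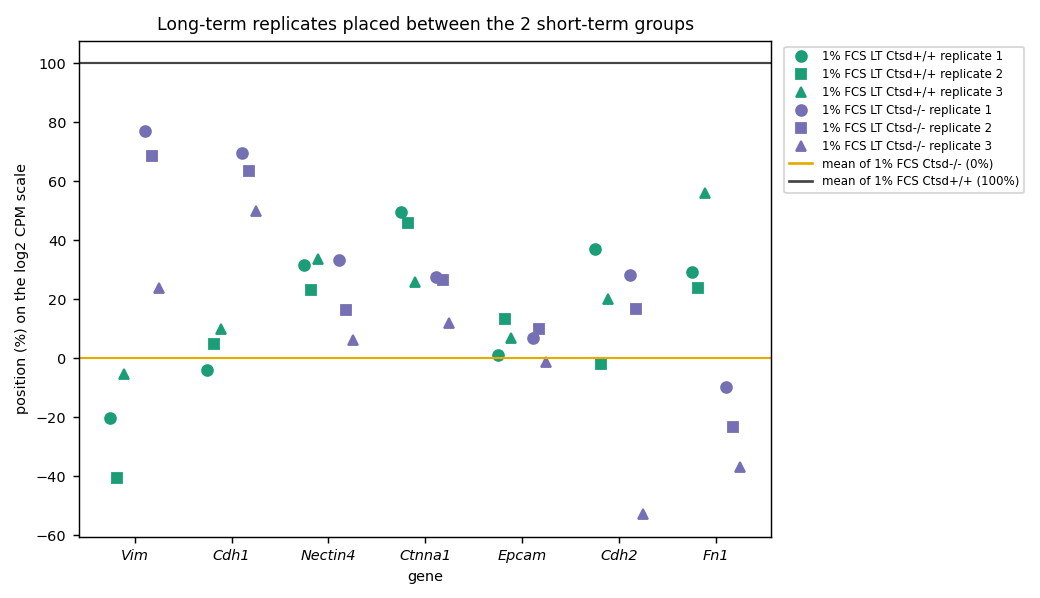
Position of each long-term library on the log2 CPM scale (y axis, %) for the 7 genes that differed between genotypes in short-term culture (x axis), with 0% at the mean of short-term Ctsd-/- and 100% at that of short-term Ctsd+/+ cells. In the long-term Ctsd-/- cells Vim lies at 23.7% to 76.9% and Cdh1 at 49.9% to 69.5%, while Epcam lies between -1.12% and 10.0%. In the long-term Ctsd+/+ cells Epcam lies between 0.949% and 13.2%, and Vim lies below 0%.

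Replicate 3 of the long-term Ctsd-/- cells has an LR number that it shares only with replicate 3 of the long-term Ctsd+/+ cells. In the Ctsd+/+ cells of that number Vim was the highest of its group, at 7.17 CPM. Without replicate 3 of the Ctsd-/- cells the long-term rise of Vim was 6.07 ± 0.59 (adjusted p = 0.000796, edgeR), and among the 8 libraries of the shared LR number it was 5.98 ± 0.47 (adjusted p = 0.00279, edgeR). The summed level of the fibroblast markers in replicates 1, 2 and 3 was 104, 17.3 and 11.5 CPM. Pdgfrb made up most of it in replicate 1, at 84.9, 3.89 and 0.968 CPM in replicates 1, 2 and 3, and Pdgfra, a receptor of fibroblasts, was the highest marker in replicates 2 and 3, at 10.6, 6.82 and 6.46 CPM. Col1a1 was at 1.96 to 3.95 CPM, and Col3a1, Dcn, Lum, Thy1 and Dpt were under 0.1 CPM in all 3. The luminal markers summed to 8537, 9708 and 11554 CPM. The part of LR number or of other cells in the difference between the replicates was not tested.

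Zeb1 and Zeb2, which are among the EMT regulators that repress Cdh1, were also uneven in these replicates. Zeb1 was at 23.1, 15.9 and 3.15 CPM in the long-term Ctsd-/- cells, against 0.548 to 0.998 CPM in short-term Ctsd-/-, 1.76 to 1.85 CPM in long-term Ctsd+/+ and 62.6 to 101 CPM in short-term Ctsd+/+ cells. Zeb2 was at 37.5, 27.5 and 8.42 CPM, with means of 11.8 ± 1.9, 1.64 ± 0.36 and 62.5 ± 5.4 CPM (SD, n = 3) in the same 3 groups. Both were highest in replicate 1 and lowest in replicate 3, as Vim was. Of the 11 regulators listed, Zeb1 rose and none fell over time in Ctsd-/- cells, against 1.57% and 0.810% of all tested genes, and 5 rose and 5 fell in Ctsd+/+ cells, against 23.0% and 23.4%. In the difference between both changes 5 were above and 5 below 0, against 16.1% and 14.1% of all tested genes. Those above 0 were the EMT inducers Snai1, Snai2, Twist1, Zeb1 and Zeb2, and those below 0 the epithelial factors Esrp1, Esrp2, Ovol1, Ovol2 and Grhl2. There Zeb1 (9.58 ± 0.84, adjusted p = 1.22e-05) and Zeb2 (6.31 ± 0.60, adjusted p = 2.23e-05) were the highest and Esrp1, a splicing regulator (-2.68 ± 0.18, adjusted p = 2.13e-06), and Ovol2, a repressor of Zeb1 (-3.07 ± 0.32, adjusted p = 3.62e-05), the lowest, all with edgeR. A value above 0 did not require a gain in Ctsd-/- cells. From short-term to long-term Ctsd-/- cells the mean went from 3.44 to 2.07 CPM for Snai1 and from 6.04 to 4.03 CPM for Snai2. In Ctsd+/+ cells it went from 37.3 to 9.03 CPM for Snai1 and from 23.0 to 2.59 CPM for Snai2.

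**Figure D4:**
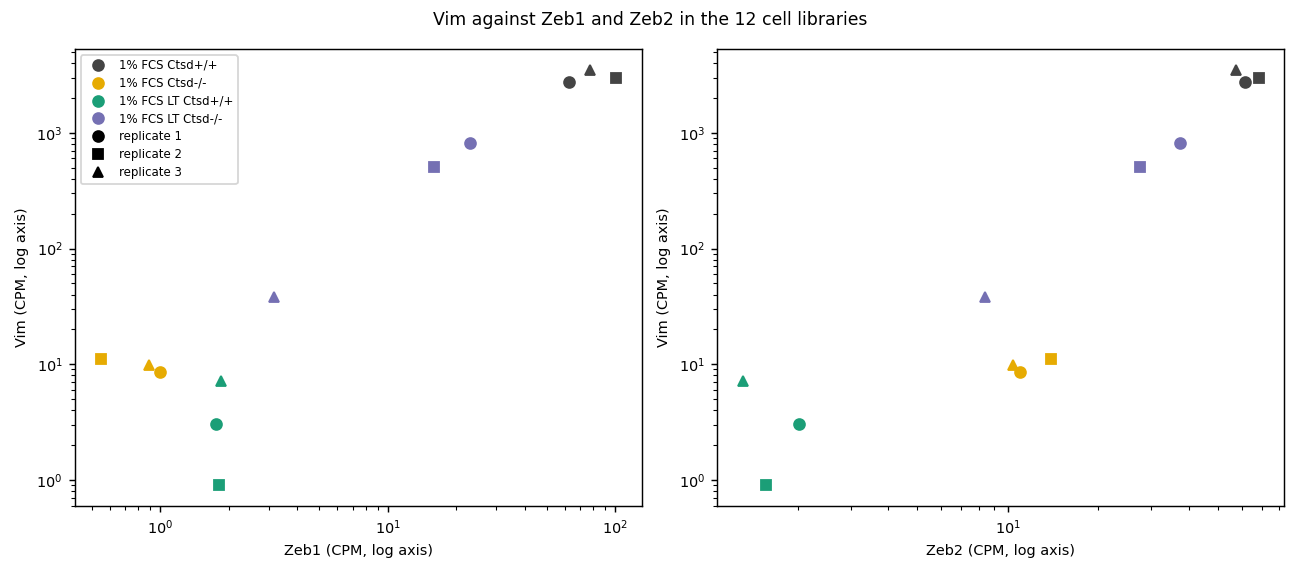
Vim CPM (y axis) against Zeb1 (left) and Zeb2 (right) CPM (x axes), all on log axes, in the 12 cell libraries, colored by group and shaped by replicate. The long-term Ctsd-/- replicates lie between the short-term Ctsd-/- and Ctsd+/+ cells in Vim and Zeb1, with replicate 1 nearest to the Ctsd+/+ cells and replicate 3 nearest to the Ctsd-/- cells.

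Other genes of the same families were counted for the difference between both long-term changes, in which 16.1% of all tested genes were above and 14.1% below 0. Of 19 other cadherins, 8 were tested, 3 were above and 0 below 0 with edgeR, and the median was 1.86. All 3 were low. Cdh10, a neural cadherin, was at 0.062 CPM on average in long-term Ctsd+/+ and 1.95 CPM in long-term Ctsd-/- cells. Cdh15, the cadherin of muscle, just passed (adjusted p = 0.04995, edgeR) and was at or below 0.144 CPM in all long-term libraries. In short-term culture Cdh15 was at 8.34, 5.74 and 0.497 CPM in Ctsd+/+ and at 0.754, 0.137 and 0.148 CPM in Ctsd-/- cells. The size of its fitted difference thus rests on few counts. Cdh23, a cadherin of hair cells, was at 9.85 ± 3.31 CPM (SD, n = 3) in long-term Ctsd-/- cells against 2.43 ± 1.31 CPM in long-term Ctsd+/+ cells. Of 17 other catenins and junction adaptors 15 were tested, 2 were above and 4 below 0, with a median of -0.18. Camsap3 (-2.78 ± 0.32) and Plekha7 (-2.40 ± 0.25), which together anchor microtubule minus ends at the epithelial adherens junction, were the lowest, and Lima1 (1.75 ± 0.31) and Pkp4 (0.65 ± 0.12) the highest, with adjusted p from 3.80e-05 to 0.00196 in edgeR. Of 9 other nectins and related molecules 7 were tested, 2 were above and 1 below 0, with a median of 0.22. Nectin1 stood out by its long-term Ctsd+/+ level of 11.9 ± 1.0 CPM (SD, n = 3), against 67.4 ± 4.6 CPM in long-term Ctsd-/- cells.

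Of 15 partners of vimentin and fibronectin, all tested, 7 were above and 0 below 0, with a median of 1.21, beside the same 16.1% and 14.1% of all genes. The list was drawn up with earlier results of these data known, so the count is a description. Itgav, the alpha subunit of fibronectin-binding integrins, had a mean of 420 CPM in short-term Ctsd+/+ cells and a difference between changes of 1.69 ± 0.17 (adjusted p = 2.59e-05, edgeR). Itgb3, its beta subunit partner, was at 12.4 to 33.7 CPM in short-term Ctsd+/+ cells, at 0 in all 3 libraries of long-term Ctsd+/+ cells and at 0.774 to 2.15 CPM in the Ctsd-/- cells of either time, so that the size of its fitted difference is not set by the counts. Fbln1, a fibronectin-binding matrix protein, was at 3.47, 2.63 and 0.145 CPM in the long-term Ctsd-/- cells, again lowest in replicate 3. Itga8, another alpha subunit, had a difference of 1.39 ± 0.39 (adjusted p = 0.0199, edgeR).

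Likeness over the 12 cell libraries was measured with Pearson's r of log2 CPM among 9487 genes with a mean above 3. The libraries form 4 groups and are not independent points, so r is a description. The genes most like Cdh1 were Kazn (r = 0.972), Ptpn13 (0.958) and Mvb12a (0.955), and those most like Vim were Rbmx (0.959), Adamtsl3 (0.959) and Lix1l (0.953). Those most like Cdh2 were Bmper (0.967), Adcy3 (0.965) and Osgep (0.963), and those most like Epcam were Cobl (0.992), Kdf1 (0.991) and Lad1 (0.990). Among the members themselves, Vim and Cdh1 had r = -0.955, Epcam and Nectin4 0.958, and Vim and Cdh2 0.705.

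In tumors none of the 10 genes passed edgeR's test between MMTV-cre;Ctsd-/- and control animals, against 0.00537% of all tested genes. None had an unadjusted p under 0.05 either, against 8.94% of all genes, and none was called by DESeq2 or limma-voom. The ranges of both groups overlapped for each gene. The differences lay between -0.68 ± 0.65 for Cdh2 and 0.85 ± 0.66 for Cdh3, and the median absolute log2 fold change of 0.31 was the same as over all genes. Cdh1 differed by 0.09 ± 0.29, Epcam by -0.45 ± 0.31 and Vim by 0.57 ± 0.41.

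The tumor levels of some members overlapped those of cell groups. Cdh1 was at 453, 378, 242 and 186 CPM in the control tumors and at 279.8, 401, 369.8 and 294 CPM in the MMTV-cre;Ctsd-/- tumors. Epcam was at 383, 508, 389 and 715 CPM in the controls and at 456, 488, 299 and 219.5 CPM in the others. Cdh2 did not exceed 4.25 CPM in any tumor, and Fn1 ranged from 51.1 to 201 CPM. Cdh11, at 6.03 to 15.8 CPM, lay above all 12 cell libraries in each tumor. Cdh3 was at 2.27 to 23.3 CPM and overlapped the cells. Tumors and cells were normalized separately and counted with a different strand setting, so these levels are set side by side without a test.

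Vim showed a split among the MMTV-cre;Ctsd-/- tumors. It was at 299.6, 432, 289 and 262 CPM in the control tumors and at 222, 253, 813 and 612 CPM in the MMTV-cre;Ctsd-/- tumors, so that replicates 3 and 4 lay above and replicates 1 and 2 below all controls. In the same replicates 3 and 4 Cdh3 was at 23.3 and 14.3 CPM, but replicate 2 of the control tumors had 14.4 CPM. Epcam was at 299 and 219.5 CPM in replicates 3 and 4 of the MMTV-cre;Ctsd-/- tumors, the 2 lowest Epcam values of all tumors. The summed level of 7 endothelial markers was 320 and 292 CPM in them and 68.3 to 130 CPM in the other 6 tumors. The 8 adipocyte markers summed to 12345 and 25996 CPM, against 870 to 8672 CPM, and the 7 basal epithelial markers to 2085 and 1343 CPM, against 510 to 1237 CPM. Luminal epithelial markers summed to 7203 and 6358 CPM, within the range of 5606 to 9756 CPM of the other 6. Fibroblast markers summed to 3419 and 2472 CPM, within the range of 1069 to 3952 CPM of the other 6. Immune markers summed to 1309 and 852 CPM, within their range of 843 to 1958 CPM. The part of these other cells in the tumor levels was not tested.

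**Figure D5:**
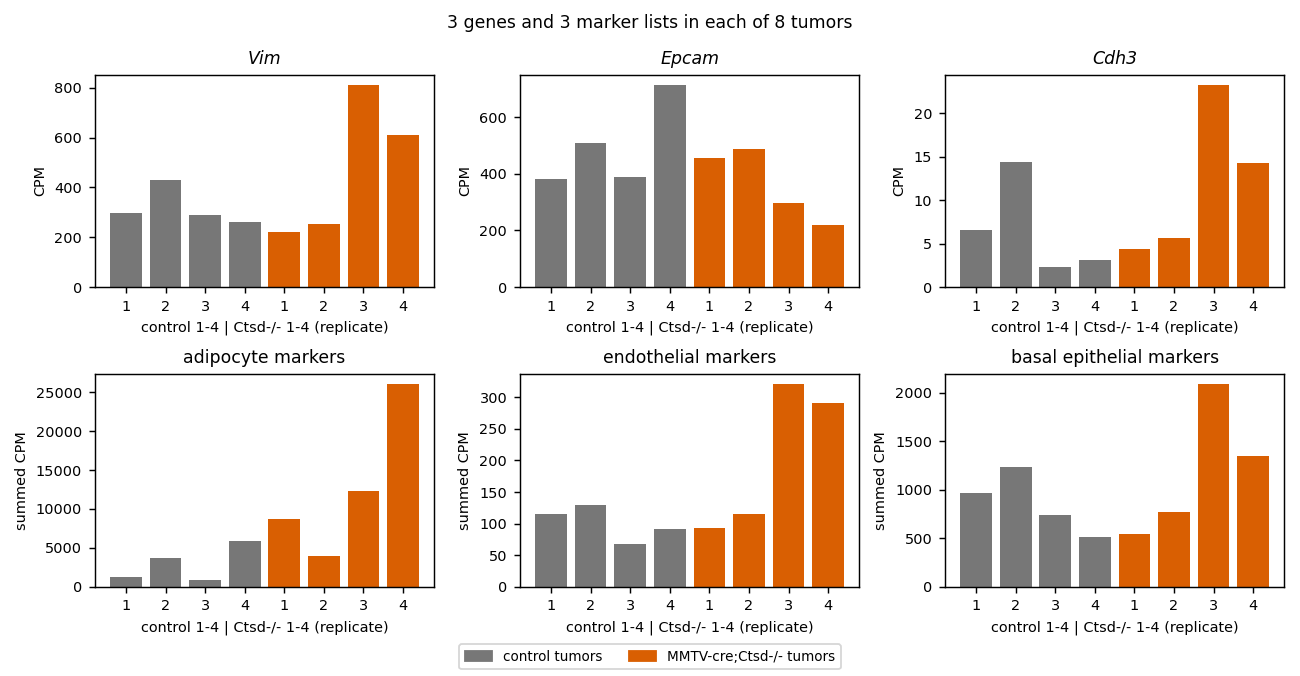
CPM of Vim, Epcam and Cdh3 (top) and summed CPM of 8 adipocyte, 7 endothelial and 7 basal epithelial markers (bottom) in each of the 8 tumors, 1 bar per animal. Replicates 3 and 4 of the MMTV-cre;Ctsd-/- tumors have the 2 highest bars for Vim and for all 3 marker lists and the 2 lowest for Epcam.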

How the data were processed

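Counts per gene, deposited by the authors without normalization for every sample, were used. The authors trimmed reads with Trimmomatic and mapped them to GRCm38 with STAR, per the methods and labels, and the annotation release is not given in the sources used here. The deposited counts come regardless of strand and for either strand. The column opposite to the gene held 97.1% to 97.3% of stranded counts in cells and was taken for them. In tumors it held 52.8% to 53.7%, and the unstranded column was taken. Reads on several genes or positions are not counted. Symbols came from GENCODE M21, which held 45143 of the 45706 identifiers. Genes were filtered with filterByExpr and scaled with TMM, and the two-sided quasi-likelihood test of edgeR 4.0.16 (R 4.3.3) was adjusted over all genes by Benjamini-Hochberg, with tumors and the 12 cell libraries fitted apart. SE is the log2 fold change over the root of F, and log2 CPM has a prior count of 2. The scripts were tested on simulated counts. Alternatives were DESeq2 1.42.0, limma-voom 3.58.1, RLE scaling, other filters, the other count column, a replicate block, libraries of a single LR number and leaving out each library. Expression is limited by counting depth only for genes with few counts, such as Cdh11. Named genes were all members, the 2 highest and 2 lowest called genes of each list by their difference between long-term changes, and the 3 genes most alike per member. The members and lists were chosen with earlier results of these data known.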

Additional observations from a re-analysis of the deposited data

Results flagged for a closer look

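For 6 genes the long-term change differed between Ctsd-/- and Ctsd+/+ cells by the interaction test of edgeR. The difference of the log2 fold changes (Ctsd-/- minus Ctsd+/+) was 15.2 for Vim, 3.56 for Cdh2, -0.58 for Ctnna1, -2.41 for Epcam, -2.89 for Cdh1 and -3.06 for Nectin4. In Vim and Cdh1 the changes of both genotypes passed the test in opposite directions, and in the other 4 genes the Ctsd+/+ change alone did. On the CPM scale no tumor stood apart from the other 3 of its group by Dixon's test in any of the 10 genes, in 20 sets of 4 values, of which chance alone marks about 1 in 20. On the log2 CPM scale, tried after the data were seen, 1 did: replicate 1 of the MMTV-cre;Ctsd-/- tumors in Cdh2, at 0.243 CPM against 1.75 to 2.09 CPM in the others, with a gap of 0.915 of the range, against 0.817 on the CPM scale, just under the critical value. The tumor difference of Cdh2 lay between -0.96 and -0.26 with each tumor left out in turn, and passed the test in none of these fits.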

How the results depend on the processing

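Beside leaving out libraries, the alternatives gave 456 of 465 single log2 fold changes the same direction and side of the threshold, and the members called stayed within 1 of the count given above. With a replicate block every one of the 66 values compared kept its direction and side of the threshold, the members called over time in Ctsd-/- cells stayed at 2 and the Vim difference there was 5.47 (adjusted p = 0.0303, edgeR). The main fit did not pair samples by replicate number. The mean correlation of deviations from group means was -0.111 for same-numbered and 0.0383 for other-numbered tumors. Between short-term groups it was 0.254 and -0.126, with a lowest same-numbered pair of 0.09997. It was also higher for same numbers between long-term Ctsd-/- cells and short-term Ctsd-/- (0.147 against -0.0734), short-term Ctsd+/+ (0.174 against -0.086) and long-term Ctsd+/+ cells (0.0636 against -0.0316). It was lower between long-term Ctsd+/+ cells and both short-term groups. Replicate 1 of both short-term groups and replicate 3 of both long-term groups share an LR number. Among the libraries of a single LR number the long-term genotype difference changed sign, without passing the test in either fit, for Epcam (-0.041), Cdh2 (0.012) and Cdh11 (0.071), and with limma-voom the change of Cdh2 over time in Ctsd-/- cells did (-0.12). Leaving out each library gave 1 to 2 members called over time in Ctsd-/- cells, with 1 where any replicate of the short-term Ctsd-/- cells was left out, as Vim then lost its call. It turned the sign of differences that had not passed the test. In tumors these were Nectin4 (-0.23 to 0.038), Ctnnd1 (-0.082 to 0.20), Cdh11 (-0.36 to 0.030) and Cdh1 (-0.085 to 0.32). Between genotypes it was Ctnnd1 (-0.013 to 0.22) in short-term culture, and Epcam (-0.036 to 0.12), Cdh2 (-1.01 to 0.050), Cdh11 (-0.42 to 0.22) and Cdh3 (-0.37 to 0.49) in long-term culture. Over time in Ctsd-/- cells it was Cdh2 (-0.17 to 0.89). The cause of these moves was not tested. Of all tested tumor genes edgeR called 1, higher in MMTV-cre;Ctsd-/- animals, where DESeq2 called 204 higher and 61 lower and edgeR without a filter 24 and 9. Over time in Ctsd-/- cells 238 rose and 123 fell, against 664 and 413 with DESeq2, 492 and 188 without a filter and 515 and 241 among the libraries of a single LR number. These fell to between 31 and 150 risen and 30 and 73 fallen genes without a replicate of the short-term Ctsd-/- cells, to 113 and 35 or 65 and 26 without replicate 1 or 2 of the long-term Ctsd-/- cells, and to 152 and 84 without replicate 2 of the long-term Ctsd+/+ cells. Depth limits Cdh11 in cells, which could not be tested where 10 counts were required in every library.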

Other observations

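Twist2, an EMT regulator singled out after its values were seen, had 0 counts in each of the 6 Ctsd-/- cell libraries, which allows a level of up to 0.0892 CPM in the smallest of them, for counting error only. It was at 11.6 to 15.9 CPM in short-term Ctsd+/+ cells and at 7.99 to 10.3 CPM in long-term Ctsd+/+ cells. The libraries at 0 include replicates 1 and 2 of the long-term Ctsd-/- cells, the highest Ctsd-/- libraries in Vim, Zeb1 and Zeb2.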
